A study of Mus musculus with 6 samples.

Results

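Integrins are the cell surface receptors with which cells hold on to matrix and to each other, and laminins, nidogens, perlecan (Hspg2), agrin (Agrn) and pikachurin (Egflam) are parts of the basement membrane, the thin matrix sheet under epithelium and around vessels, muscle and fat cells. Their genes were read in 6 tissue regions of mouse cholangiocarcinoma, a bile duct cancer. Members were all integrin alpha and beta subunits, all laminin chains and these 5 linker genes as named in the deposited table, 37 of its 13264 targets. The rule picked them by name, and it was set with earlier results of these data known. Itga7, Itgad, Itgb6 and Itgb7 were not analysed here. The assay was the GeoMx mouse transcriptome atlas: probes for each gene hold a tag, light frees the tags within an outlined area, and they are sequenced. In each region the collected area was positive for Desmin, a filament protein of muscle, stellate cells and some fibroblasts, and negative for CD45, the pan-leukocyte surface protein, and the submitters label these cells cancer-associated fibroblasts. In 3 regions the tumour grew in Cd274+/+ mice with Col1A1Cre, called control-labelled here, and in 3 regions in Cd274F/F mice with the same Cre, called floxed-labelled. The labels give the SB murine cholangiocarcinoma line for all 6 regions, and no label gives the animal, its age or how many animals there were. Cd274 is the gene of PD-L1, an inhibitory ligand of T cells, and the Cre is driven by the promoter of Col1a1, a fibrillar collagen gene of fibroblasts, so that cells which do not use this promoter keep the gene.

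An integrin is a pair of 1 alpha and 1 beta subunit, and the pair decides what is bound. The beta 2 subunit (Itgb2) pairs with Itgal, Itgam and Itgax on leukocytes and binds ICAM proteins or complement fragments, whereas the beta 1 subunit (Itgb1) pairs with many alpha subunits on most adherent cells and binds collagens, laminins or fibronectin. A laminin is a trimer of an alpha, a beta and a gamma chain that assembles into a network on the cell surface, and nidogens and perlecan link this network to collagen IV.

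Cd274 did not separate the groups, and it lay at 10.6, 14.2 and 13.4 in control-labelled regions against 11.1, 17.4 and 29.2 in floxed-labelled ones after scaling (log2 change 0.47 ± 0.36 SE at adjusted p 0.610, limma with Benjamini-Hochberg adjustment), and where its probe lies relative to the floxed part is not given, so it does not check the labels. Values here are signal scaled so that the third quartile of all targets (Q3) is the same in each region, since the summed signal as deposited was 720786 to 1024180 in the control-labelled and 223253 to 393615 in the floxed-labelled regions. The negative probe, which has no target in mouse RNA and reads background, was 4.89 ± 0.155 and 5.71 ± 1.14 on this scale (SD, n = 3 each). Floxed-labelled region 2 had the lowest summed signal and the highest scaled negative probe, 6.97. Log2 of the deposited, unscaled values + 1 correlated across targets at 0.921 to 0.939 among the control-labelled regions and at 0.686 to 0.806 among the floxed-labelled regions. Targets are not independent replicates. Des, the gene of the mask protein, lay at 31.4 ± 8.07 and 36.5 ± 12.6, and Ptprc, the gene of CD45, at 26.1 ± 4.63 and 47.8 ± 15.9 (SD, n = 3 each). The fibroblast markers Col1a1 and Col3a1 lay at 2982 ± 666 and 1729 ± 467 and at 2711 ± 839.8 and 1500.4 ± 325. The keratin gene Krt8, an epithelial marker, and Alb, the hepatocyte albumin gene, were also high, at 857 ± 166 and 545 ± 176 and 2364 ± 532 and 3344 ± 1989.7, so genes of other cell types were read in these areas, and fewer cells of a type cannot be told apart from less RNA per cell. All 6 regions lay on 1 slide, the floxed-labelled as areas 11 to 13 and the others as areas 14 to 16, so genotype and position cannot be told apart. Some regions may come from the same mouse, and p-values, which rest on the spread between regions, may then be too small.

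No integrin, laminin or linker gene passed the test for a difference between the genotypes. The basement membrane linkers had a median log2 change of -0.84 (floxed minus control) and the leukocyte integrins one of 0.84. Of 37 members, all of which passed the filter on low values, 0 had an adjusted p under 0.05 in either direction (limma, Benjamini-Hochberg over all targets), where 0.701% of all targets were called, 0.588% higher and 0.113% lower. At an unadjusted p under 0.05 there were 5 members higher and 9 lower, 14 in all, beside 12.7% of all targets (6.73% higher and 5.98% lower), and limma was the only tool run. With limma's region weights 6 members passed, 2 higher and 4 lower, where 5.24% of all targets did (2.75% higher and 2.49% lower). At an adjusted p under 0.1 only Egflam passed, where 1.26% of all targets did (0.867% higher and 0.392% lower). The median log2 change of the members was -0.36, beside 0.02 for all targets. In 8 members every floxed-labelled region lay below every control-labelled region (Egflam, Lamb1, Hspg2, Lamc1, Itga6, Itgb1, Agrn and Lama5), which is 21.6% of the members beside 9.08% of all targets. In 3 members every floxed-labelled region lay above (Itgb2, Itgax and Itgal), 8.11% beside 10.0% of all targets, or 11 members in both directions beside 19.1%. Without floxed-labelled region 1 there were 23 such members beside 41.9% of all targets, and without control-labelled region 3 17 beside 26.3%. As deposited, without scaling, 29 members were lower and 0 higher at an adjusted p under 0.05, beside 74.7% and 0.158% of all targets (74.8% in either direction), and the median log2 change was -1.61 over members against -1.22 over all targets. Groups there did not overlap in 29 members, beside 75.6% of all targets. The 8 members without a call on the deposited scale were Itgb2, Itgae, Itgax, Itgal, Itga4, Lama2, Itga11 and Itga8.

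**Figure D1:**
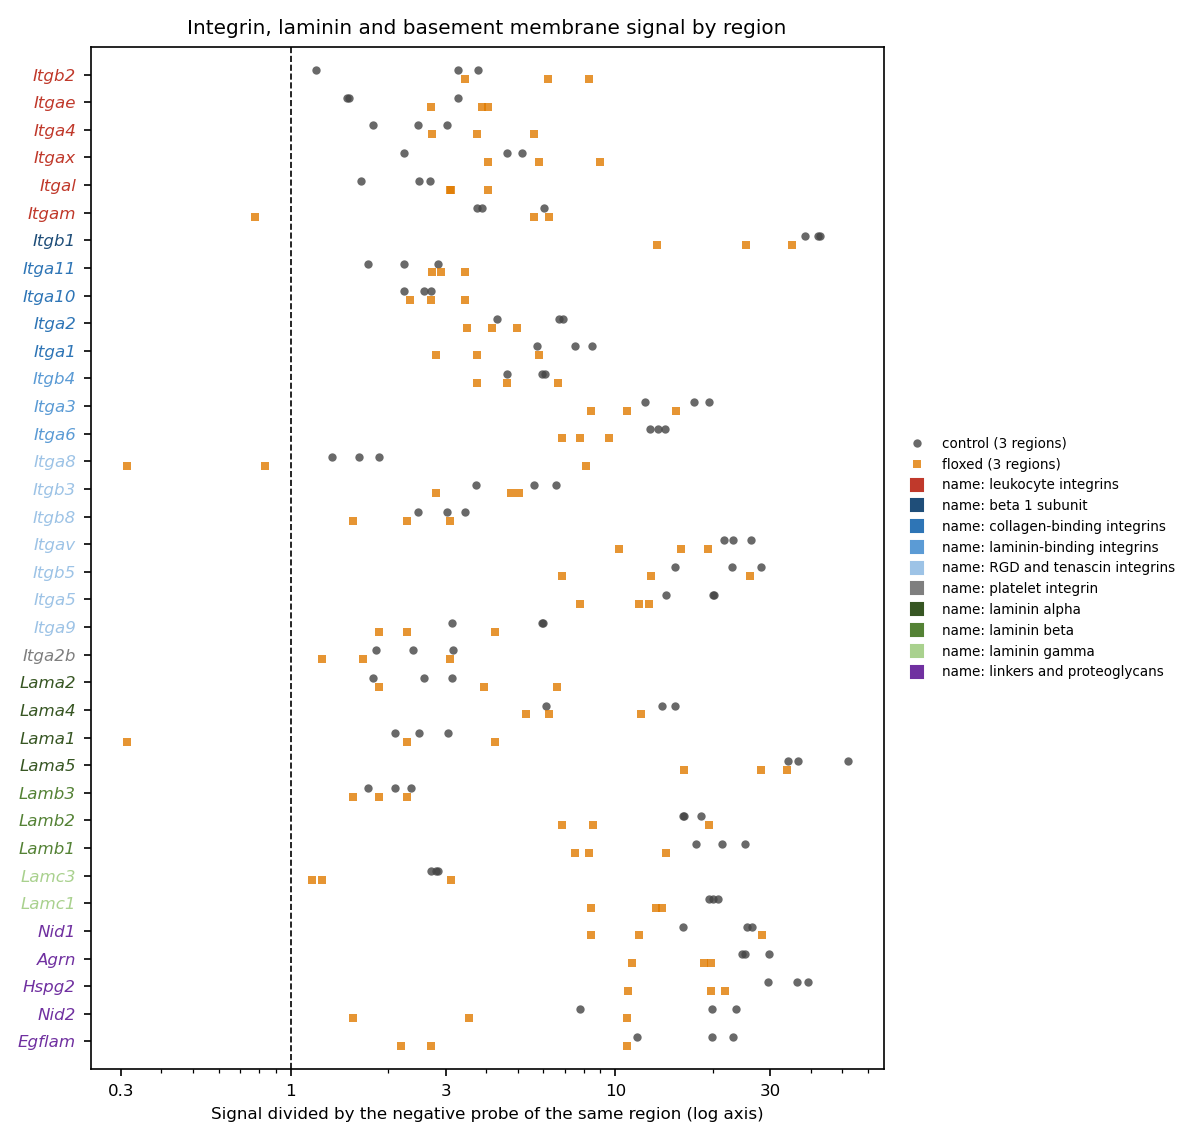
Signal of the members named in the text divided by the negative probe of the same region, on a log axis, with 1 point per region (grey circles control-labelled, orange squares floxed-labelled) and names coloured by role; the dashed line marks the negative probe. Itgb1 and Lama5 lie farthest above background, and Itga8, Lama1 and Itgam have floxed-labelled regions below it.

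The linkers and proteoglycans of the basement membrane had the most negative median log2 change of the member lists. All 5 had a negative log2 change, with a median of -0.84, 0 of 5 passed the test, and in 3 of 5 every floxed-labelled region was lower, beside 9.08% of all targets. Egflam encodes pikachurin, a dystroglycan ligand best known from the photoreceptor synapse. It read 100.5, 112 and 55.5 in control-labelled regions against 51.8, 15.2 and 14.6 in floxed-labelled ones. Floxed-labelled regions 2 and 3 were far below the rest, and floxed-labelled region 1 lay just under the lowest control. The log2 change was -1.87 ± 0.43 SE at adjusted p 0.084 (limma), and without floxed-labelled region 1 it was -2.45 with an adjusted p of 1.25e-04. Nid2 encodes nidogen 2, which bridges laminin and collagen IV. It read 39.3, 96.8 and 112 in control-labelled regions against 51.8, 10.9 and 19.1 in floxed-labelled ones. The groups overlapped, since control-labelled region 1 lay below floxed-labelled region 1. The log2 change was -1.71 ± 0.50 SE at adjusted p 0.172. In floxed-labelled region 2 Nid2 was 1.56 times the negative probe, so the size of this difference is uncertain. Nid1, the partner gene of Nid2, read 81.6, 128 and 121 in control-labelled regions against 135, 58.8 and 63.9 in floxed-labelled ones, with the highest of the 6 values in floxed-labelled region 1 (log2 change -0.43, adjusted p 0.598).

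Hspg2 encodes perlecan, a large heparan sulfate proteoglycan of basement membranes. It read 149.6, 190.2 and 173 in control-labelled regions against 104, 76.2 and 107 in floxed-labelled ones. Every floxed-labelled region was below every control, at 171 ± 20.4 and 95.5 ± 16.7 on average (SD, n = 3 each). The log2 change was -0.84 ± 0.23 SE at adjusted p 0.148. Agrn encodes agrin, a heparan sulfate proteoglycan that binds laminin and dystroglycan. It read 151, 119 and 119 in control-labelled regions against 94.4, 78.4 and 101 in floxed-labelled ones. The groups again did not overlap, by a narrower margin, and the log2 change was -0.50 ± 0.22 SE at adjusted p 0.375.

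Beside these values the summed signal of 12 endothelial marker genes was 232 to 614 in the control-labelled and 259 to 559 in the floxed-labelled regions, region by region 232, 614 and 464 against 559, 261 and 259. Nid2, Nid1 and the vessel laminin chain Lama4 were likewise lowest among the controls in control-labelled region 1 and highest among the floxed-labelled in region 1. Lamb1, Lama1 and Lama2 shared this order, and the other laminins and linkers did not. Lama5, Lamc1 and Agrn were highest among the controls in control-labelled region 1. Hspg2, Lamc1 and Agrn were highest among the floxed-labelled in region 3. None of the 12 endothelial markers was called, 1 was lower at an unadjusted p under 0.05, and none was at 0. Over these 12 genes the median log2 change was -0.36, 9 were negative and 3 positive, up to 0.76, and all 12 overlapped between the groups. The summed signal of 11 epithelial markers was 1961 to 2809 in the control-labelled and 1255 to 1934 in the floxed-labelled regions, without overlap, and that of 12 fibroblast markers was 6038 to 8399 in the control-labelled and 3756 to 5229.6 in the floxed-labelled regions, also without overlap. The keratin genes Krt8 and Krt18 made up most of the epithelial sum. Over the 11 epithelial genes the median log2 change was -0.49, 4 were positive, up to 0.74, 8 overlapped between the groups and 0 were called. Col1a1 and Col3a1 made up most of the fibroblast sum. Over its 12 genes the median log2 change was -0.19, 4 were positive, 1 was called higher (Pdpn, podoplanin, 1.36 at adjusted p 0.024) and 0 were called lower. The part of these cells in the values of the basement membrane genes was not tested.

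The start regions of the 3 basement membrane members with the smallest p are shown because their levels lay apart between the groups. They are the 250 bases before the annotated start, 5′ to 3′ on the strand of the gene, from RefSeq on GRCm38.p6. Capitals mark the GC box GGGCGG or its reverse complement CCGCCC.
Hspg2, chr4:137468553-137468802, plus strand: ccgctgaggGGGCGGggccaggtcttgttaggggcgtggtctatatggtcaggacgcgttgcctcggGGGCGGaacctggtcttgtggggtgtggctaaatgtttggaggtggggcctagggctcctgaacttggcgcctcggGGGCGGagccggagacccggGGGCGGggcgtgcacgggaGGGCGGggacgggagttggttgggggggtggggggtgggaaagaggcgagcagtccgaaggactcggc
Lamb1, chr12:31265043-31265292, plus strand: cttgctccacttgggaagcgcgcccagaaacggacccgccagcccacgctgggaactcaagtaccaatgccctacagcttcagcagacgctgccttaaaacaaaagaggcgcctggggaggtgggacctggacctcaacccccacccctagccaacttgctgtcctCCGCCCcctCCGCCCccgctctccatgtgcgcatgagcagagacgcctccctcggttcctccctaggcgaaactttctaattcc
Egflam, chr15:7398396-7398645, minus strand: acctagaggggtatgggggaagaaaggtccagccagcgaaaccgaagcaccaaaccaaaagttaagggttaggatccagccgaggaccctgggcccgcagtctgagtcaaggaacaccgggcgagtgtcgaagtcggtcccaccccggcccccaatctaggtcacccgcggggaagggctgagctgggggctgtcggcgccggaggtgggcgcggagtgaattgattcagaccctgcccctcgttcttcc
The window of Hspg2 held 5 matches, that of Lamb1 2 and that of Egflam 0, and Egflam has 2 annotated windows of which the first is shown. All 3 were rich in G and C, at 70.0%, 62.0% and 63.2%, with 20, 14 and 17 CG pairs. Windows were found for 25 of 37 members. A match was present for 5 of 9 laminin and linker genes and for 6 of 16 integrin genes, beside 35.4% of all 27025 genes with a window. A match is a description of the letters and not a site.

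**Figure D2:**
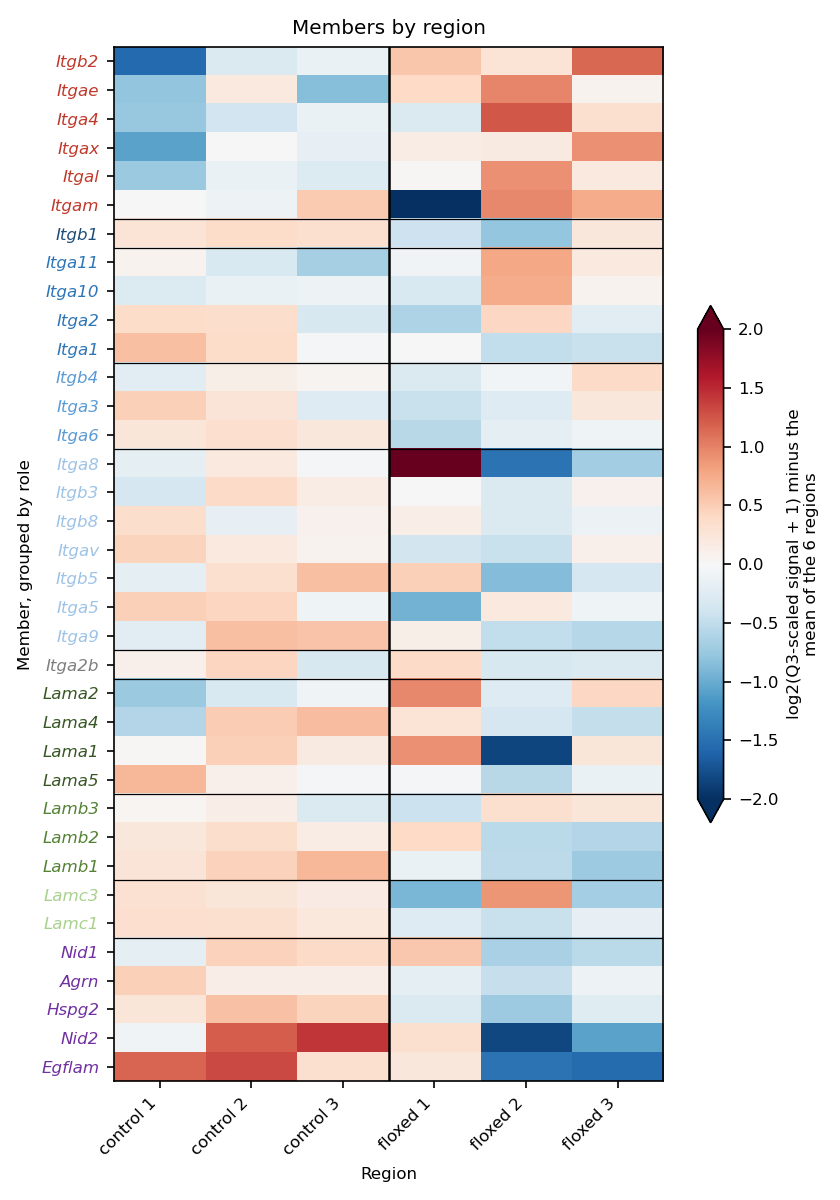
Each row is a member named in the text, grouped by role in the colours of the plot of signal over background, and each column a region. The colour is log2(Q3-scaled signal + 1) minus the mean of the 6 regions, red above and blue below that mean. The linker rows at the bottom are mostly red in the control-labelled columns and blue in floxed-labelled regions 2 and 3, while the leukocyte integrin rows at the top are mostly blue in the control-labelled columns, with Itgam darkest blue in floxed-labelled region 1.

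Among the 10 laminin chains 0 passed the test, 8 had a negative log2 change, and the ubiquitous beta 1 and gamma 1 chains and the alpha 5 chain lay apart between the groups. Lamb1, the beta 1 chain, read 89.9, 104 and 119.8 in control-labelled regions against 68.5, 52.3 and 44.9 in floxed-labelled ones. Every floxed-labelled region was lower than every control, at 104 ± 15.0 and 55.2 ± 12.1 (SD, n = 3 each), and the log2 change was -0.92 ± 0.24 SE at adjusted p 0.128 (limma). Lamc1, the gamma 1 chain that most laminins share, read 101, 101 and 92.5 in control-labelled regions against 66.6, 58.8 and 71.8 in floxed-labelled ones. The spread within each group was small beside the gap, and the log2 change was -0.58 ± 0.21 SE at adjusted p 0.279. Lama5, the alpha chain of epithelial and mature vessel basement membranes, read 263, 177 and 162 in control-labelled regions against 161, 113 and 151 in floxed-labelled ones. Floxed-labelled region 1 lay only just under control-labelled region 3, and the log2 change was -0.48 ± 0.26 SE at adjusted p 0.462, or -0.27 without control-labelled region 1.

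The other laminin chains overlapped between the groups. Lamb2, the beta 2 chain, read 81.6, 89.4 and 77.6 in control-labelled regions against 92.5, 47.9 and 46.0 in floxed-labelled ones, with the highest and the 2 lowest values all in floxed-labelled regions. Without floxed-labelled region 1 its log2 change was -0.81 with an adjusted p of 0.0315 (limma), against -0.48 and 0.490 with all regions. Lama4, a chain of vessel and muscle basement membranes, read 31.0, 67.8 and 72.5 in control-labelled regions against 57.4, 37.0 and 33.7 in floxed-labelled ones (adjusted p 0.695). Lama2, the chain that is lost in merosin-deficient muscular dystrophy, had the largest positive log2 change among the laminins, 0.74 ± 0.35 SE at adjusted p 0.405. It read 9.07, 12.5 and 14.9 in control-labelled regions against 31.5, 13.1 and 21.3 in floxed-labelled ones, overlapping, and was under 2 times the negative probe in 2 regions. Lamb3, a beta chain of epithelial laminin, had a log2 change of 0.08 and was close to background, at 2.05 and 1.90 times the negative probe in the control- and floxed-labelled regions. Lamc3 and Lama1 lay at 13.6 ± 0.751 and 11.4 ± 9.05 and at 12.4 ± 2.17 and 11.6 ± 9.11, and Lama1 rested on 1 tag in floxed-labelled region 2 if the smallest step of the deposited values is 1 tag.

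Integrins of matrix adhesion mostly had lower values in the floxed-labelled regions, by less than 1 on the log2 scale. Of 15 such members, 0 passed the test, 11 had a negative log2 change, and the median was -0.31. Itgb1, the shared beta 1 subunit, read 195, 208 and 199.997 in control-labelled regions against 120.3, 93.6 and 188 in floxed-labelled ones. The controls lay close together, and floxed-labelled region 3 came close to them while regions 1 and 2 lay well below. The log2 change was -0.64 ± 0.27 SE at adjusted p 0.348. Itga6, the alpha 6 subunit of laminin receptors, read 65.0, 68.9 and 64.3 in control-labelled regions against 37.0, 47.9 and 51.6 in floxed-labelled ones. The groups did not overlap, and the log2 change was -0.54 ± 0.22 SE at adjusted p 0.338.

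The other laminin receptor subunits gave no separation. Itga3 read 98.2, 84.9 and 58.6 in control-labelled regions against 51.8, 58.8 and 83.0 in floxed-labelled ones, overlapping, with an adjusted p of 0.661. Itgb4, the partner of Itga6 in hemidesmosomes, was nearly level between the groups, at 27.1 ± 3.26 and 28.1 ± 7.05 (log2 change 0.03 ± 0.26 SE at adjusted p 0.979). Among the 4 collagen receptor subunits the direction was mixed. Itga1 read 43.1, 36.4 and 27.2 in control-labelled regions against 27.8, 19.6 and 20.2 in floxed-labelled ones, where floxed-labelled region 1 was just above the lowest control, and its log2 change was -0.63 ± 0.26 SE at adjusted p 0.343. Itga2 had a log2 change of -0.27, and Itga10 and Itga11 of 0.34 and 0.60, at adjusted p of 0.761, 0.717 and 0.499. Itga11, a collagen receptor of fibroblasts, was only 2.26 and 3.02 times the negative probe in the control- and floxed-labelled regions.

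Receptors for fibronectin, vitronectin and latent TGF-beta, which recognise the RGD motif, and the tenascin receptor subunit Itga9 made up the remaining matrix integrins. Of these 7 members 6 had a negative log2 change and all overlapped between the groups. Itgav, the alpha subunit of several RGD receptors, read 133, 112 and 103 in control-labelled regions against 75.9, 71.9 and 104 in floxed-labelled ones. Floxed-labelled region 3 was inside the control range, regions 1 and 2 were below it, and the log2 change was -0.47 ± 0.23 SE at adjusted p 0.428. Itga5, the fibronectin receptor subunit, lay at 89.2 ± 18.1 and 62.7 ± 23.4, Itgb5 at 107 ± 28.7 and 80.5 ± 39.2, Itga9 at 24.4 ± 7.398 and 15.3 ± 4.44, Itgb3 at 25.8 ± 6.55 and 23.2 ± 3.20 and Itgb8 at 14.6 ± 2.71 and 12.7 ± 1.98 (SD, n = 3 each), with adjusted p of 0.464, 0.568, 0.433, 0.881 and 0.853. Itga8, a subunit of mesenchymal and smooth muscle cells, read 6.80, 9.11 and 7.71 in control-labelled regions against 38.9, 2.18 and 4.49 in floxed-labelled ones. Its signal was under 2 times the negative probe in 5 of 6 regions and 8.15 times it in floxed-labelled region 1. Itga2b, the platelet subunit, read 12.1, 15.4 and 8.74 in control-labelled regions against 14.8, 8.71 and 8.97 in floxed-labelled ones. It overlapped, at 2.46 and 2.01 times the negative probe (log2 change -0.15 ± 0.39 SE at adjusted p 0.914), and its sign turned to 0.03 without control-labelled region 2. The platelet marker Pf4 lay at 12.6 ± 2.49 and 13.2 ± 4.65.

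**Figure D3:**
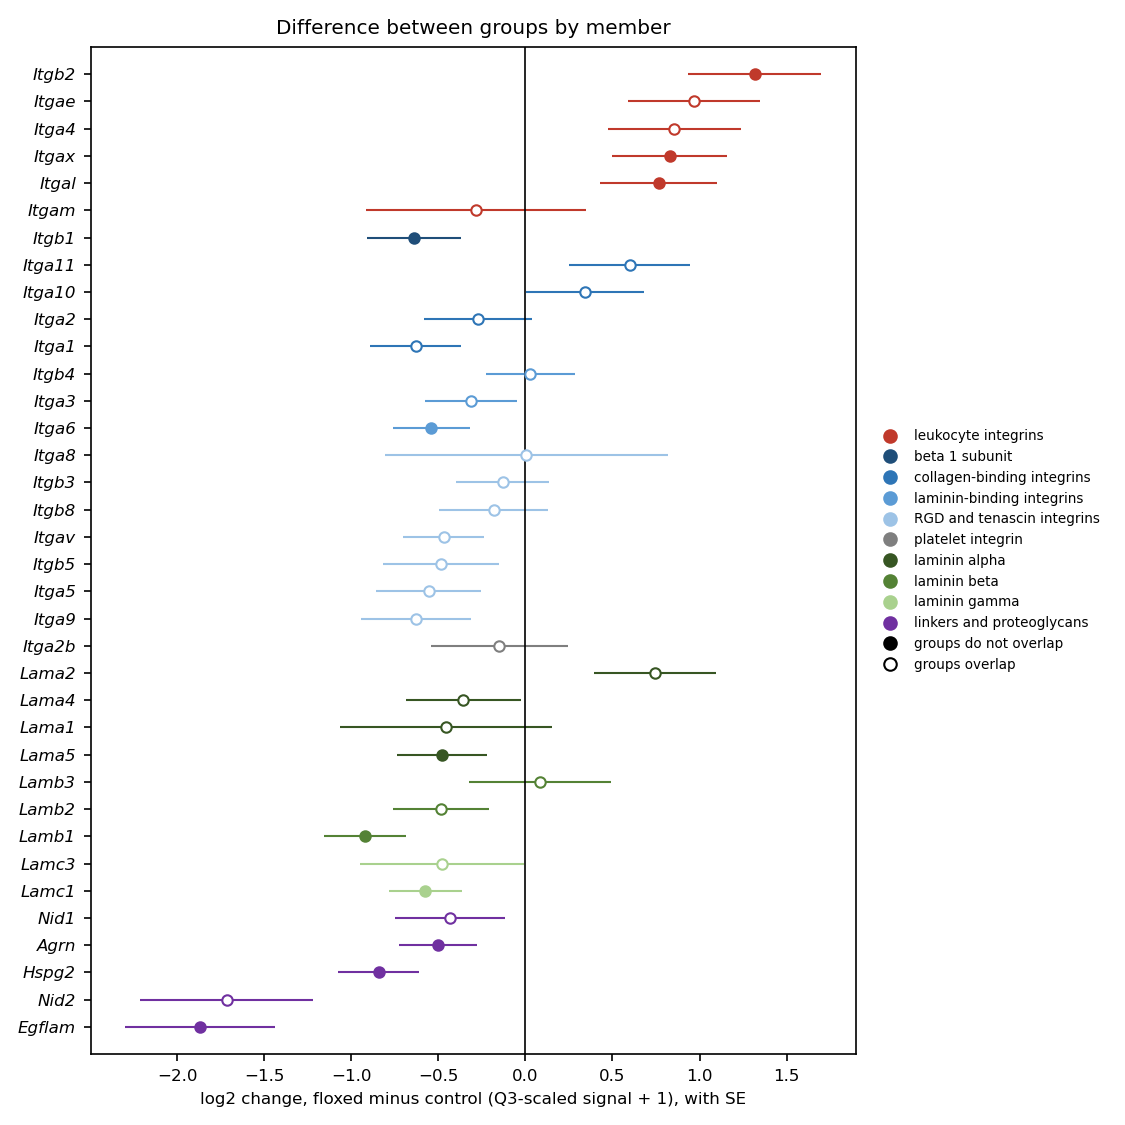
Log2 change of each member named in the text, floxed minus control, on the Q3-scaled signal + 1, with its SE from limma; colours give the role, filled points mark members whose groups do not overlap and open points those whose groups overlap. Filled points to the right of 0 are Itgb2, Itgax and Itgal, those to the left are basement membrane genes, Itga6 and Itgb1, and no member passed an adjusted p of 0.05.

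Leukocyte integrins mostly had higher values in the floxed-labelled regions. Of 6 members, counting Itga4, which is not limited to leukocytes, 5 had a positive log2 change and an unadjusted p under 0.05, beside 6.73% of all targets that were higher at that p, 0 passed the test over all targets, and the list median was 0.84. Itgb2, the shared beta 2 subunit, read 6.04, 15.9 and 17.99 in control-labelled regions against 29.6, 24.0 and 44.9 in floxed-labelled ones. All floxed-labelled regions were higher than all controls, and control-labelled region 1 was near background, at 1.19 times the negative probe. The log2 change was 1.32 ± 0.38 SE at adjusted p 0.174 (limma). Divided by the negative probe of its own region, Itgb2 overlapped between the groups, since floxed-labelled region 2 had the highest background, and so did Itgax. On that scale 1 member, Itgal, was higher and 10 were lower without overlap, beside 5.74% and 14.2% of all targets (19.9% in either direction).

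Itgax, the CD11c subunit of dendritic cells and some macrophages, read 11.3, 25.1 and 22.1 in control-labelled regions against 27.8, 28.3 and 48.2 in floxed-labelled ones. The lowest floxed-labelled region lay just above control-labelled region 2, and the log2 change was 0.83 ± 0.33 SE at adjusted p 0.327. Itgal, the CD11a subunit of the lymphocyte receptor LFA-1, read 8.31, 13.1 and 11.8 in control-labelled regions against 14.8, 28.3 and 16.8 in floxed-labelled ones, without overlap, and its log2 change was 0.76 ± 0.34 SE at adjusted p 0.375. Itgae, the CD103 subunit of tissue-resident T cells and some dendritic cells, read 7.55, 15.9 and 7.20 in control-labelled regions against 18.5, 28.3 and 14.6 in floxed-labelled ones, with 1 control inside the floxed-labelled range (log2 change 0.97 ± 0.38 SE at adjusted p 0.319). Itga4, which pairs with beta 1 or beta 7 on lymphocytes and other cells, read 9.07, 12.0 and 14.4 in control-labelled regions against 13.0, 39.2 and 20.2 in floxed-labelled ones (log2 change 0.86 ± 0.38 SE at adjusted p 0.375). Floxed-labelled region 2 had the highest Itga4, Itgal and Itgae, whereas region 3 had the highest Itgb2 and Itgax. In the control-labelled regions these 5 genes averaged only 2.10 to 4.01 times the negative probe, so the sizes of these differences are uncertain. With each region left out in turn the log2 change ran from 0.86 to 1.57 for Itgb2 and from 0.50 to 1.03 for Itgax, both lowest without control-labelled region 1. It ran from 0.50 to 0.95 for Itgal and from 0.45 to 1.21 for Itga4, both lowest without floxed-labelled region 2.

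Itgam, the CD11b subunit of neutrophils, monocytes and macrophages, was the exception. It read 19.6, 18.2 and 28.8 in control-labelled regions against 3.70, 39.2 and 33.7 in floxed-labelled ones. Floxed-labelled regions 2 and 3 were above every control, while region 1 was the lowest of all and below the negative probe, at 2 tags if the smallest step is 1 tag. The log2 change was -0.28 ± 0.63 SE at adjusted p 0.892, and it was 0.71 without floxed-labelled region 1. The summed signal of 5 neutrophil marker genes was 119 to 154 in the control-labelled and 59.2 to 87.1 in the floxed-labelled regions, lower without overlap, and 2 of the 5, S100a9 and S100a8, fell with adjusted p of 0.0137 and 0.029 (limma). Over the 5 genes the median log2 change was -0.47, 2 were positive, up to 0.39, and 3 overlapped between the groups. The summed signal of 11 macrophage markers was 348 to 703 in the control-labelled and 533 to 849.5 in the floxed-labelled regions, overlapping, with 1 gene, Lyz2, called higher at an adjusted p of 0.015. The part of neutrophils and macrophages in the values of Itgam was not tested.

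Setting leukocyte against matrix integrins within a region leaves out a factor common to all genes of that region, apart from the pseudocount. The mean log2 signal of the 6 leukocyte integrins minus that of the 15 matrix integrins was -1.83, -1.23 and -1.10 in control-labelled regions against -1.03, 0.10 and -0.24 in floxed-labelled ones. The groups did not overlap, though floxed-labelled region 1 lay just above control-labelled region 3. On average it was -1.39 ± 0.391 against -0.388 ± 0.581 (SD, n = 3 each), which differ by 1.00. How this splits between the lists is set by the scaling. After Q3 scaling the mean log2 signal differed by 0.74 for the leukocyte integrins and by -0.26 for the matrix integrins. The median log2 changes of the 2 lists were 0.84 and -0.31 after Q3 scaling, against -0.41 and -1.61 as deposited. For the main beta subunits of each class, Itgb2 against Itgb1, the within-region log2 difference was -4.80, -3.62 and -3.40 in control-labelled regions against -1.99, -1.92 and -2.05 in floxed-labelled ones. The size of this difference is uncertain, since Itgb2 in control-labelled region 1 was 1.19 times the negative probe, and with the negative probe subtracted the difference between the groups was 2.60 in place of 1.96. The groups did not overlap, and a two-sided exact permutation test over the regions gave p = 0.1, the smallest that 3 against 3 can give. The floxed-labelled regions differed from each other by far less than the controls, but Itgb2 rested on few tags. If the smallest step is 1 tag, these were 16, 11 and 40 in floxed-labelled regions 1, 2 and 3. Their counting errors were 25%, 30.2% and 15.8%. In control-labelled region 1, which lay farthest from the other controls, Itgb2 rested on 8 tags. The contrast in spread between the groups therefore cannot be told apart from counting error.

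**Figure D4:**
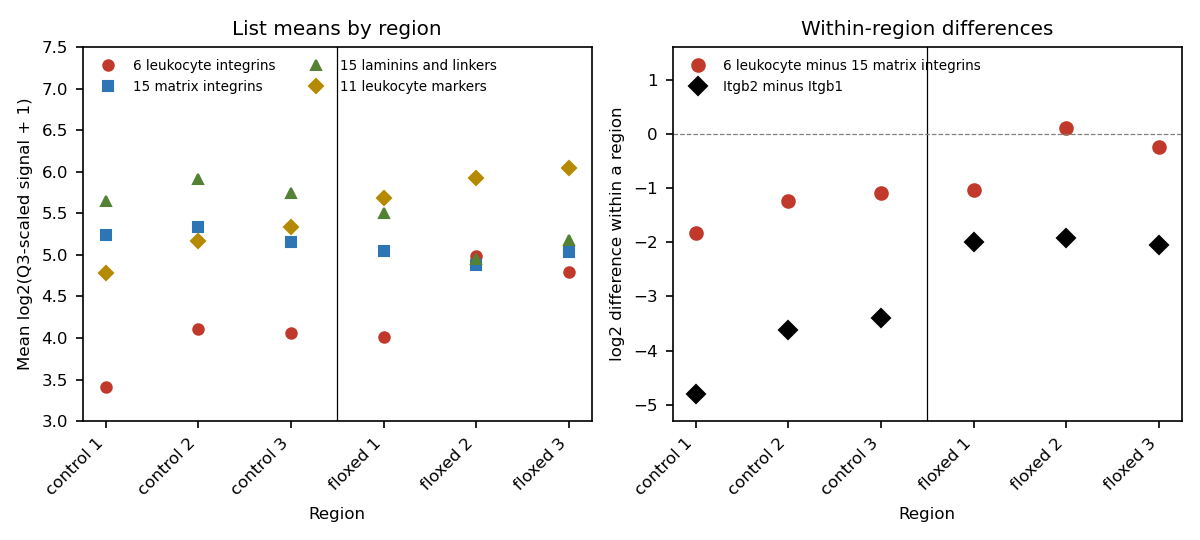
Left, the mean log2(Q3-scaled signal + 1) of 4 gene lists in each region: leukocyte integrins (red circles), matrix integrins (blue squares), laminins and linkers (green triangles) and leukocyte markers (yellow diamonds). Right, within-region log2 differences, where leukocyte minus matrix integrins runs from -1.83 to 0.10 and Itgb2 minus Itgb1 from -4.80 to -1.92, with the floxed-labelled regions above the controls in both.

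General leukocyte genes were also higher in the floxed-labelled regions after Q3 scaling, although the areas were chosen as CD45-negative. The summed signal of 11 leukocyte markers was 316 to 467 in the control-labelled and 629 to 818 in the floxed-labelled regions, without overlap. Of these 11, 1 rose, Cd52 at an adjusted p of 0.024 (limma), beside 0.588% of all targets. At an unadjusted p under 0.05, 9 were higher, beside 6.73% of all targets, and none was at 0. As deposited, 0 of the 11 were called higher and 1 lower, beside 0.158% and 74.7% of all targets. Their median log2 change there was -0.43, beside -1.22 for all targets. Lcp1, the leukocyte plastin, lay at 62.6 ± 7.86 and 130.1 ± 29.8, and Laptm5, a lysosomal protein of blood cells, at 48.8 ± 8.24 and 92.1 ± 3.26 (SD, n = 3 each). The mean log2 signal of these markers differed by 0.79 between the groups, beside 0.74 for the leukocyte integrins. The summed signal of 7 T and NK cell markers was 51.4 to 62.7 in the control-labelled and 74.0 to 164 in the floxed-labelled regions. Trac, a T cell receptor constant region gene, read 6.80, 8.54 and 9.77 in control-labelled regions against 14.8, 26.1 and 35.9 in floxed-labelled ones. These 7 genes lay near background in the controls, at a median of 1.63 times the negative probe. Trac was 1.34, 1.76 and 2.05 times it there, so the sizes of these differences are uncertain. The part of leukocytes in the areas was not tested.

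Floxed-labelled region 1 differed from the other 2 of its group in several matrix genes. It had the highest floxed-labelled value of Egflam, Itga1, Itga2b, Itga8, Itga9, Itgb5, Itgb8, Lama1, Lama2, Lama4, Lama5, Lamb1, Lamb2, Nid1 and Nid2, and the lowest of members that include Itga10, Itga11, Itga2, Itga3, Itga4, Itga5, Itga6, Itgal, Itgam, Itgax, Itgb4, Lamb3 and Lamc3. Itga8, far higher there, rested on 21, 1 and 4 tags in floxed-labelled regions 1, 2 and 3 under the same reading of a step. Without region 1, 5 members were lower and 2 higher at an adjusted p under 0.05 (limma), 7 of 37 where 7.71% of all targets were called, 4.04% higher and 3.67% lower. They were Egflam, Nid2, Lamb1, Hspg2 and Lamb2, lower, and Itgb2 and Itga4, higher. Their adjusted p ran from 1.25e-04 for Egflam to 0.0490 for Itgb2. This fit rests on 2 floxed-labelled regions, and leaving out any other single region gave 0 members.

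Ligands, adaptors and other parts of the same adhesion system were described with lists chosen for this purpose. Of their 75 genes 0 passed the test (limma), 1 did under quantile normalization, where 0.626% of all targets did, and 24 had an unadjusted p under 0.05. The counts of the single lists at that p, given next, stand beside 12.7% of all targets, 6.73% higher and 5.98% lower. Among 13 matrix ligands of integrins 1 was higher and 6 lower at an unadjusted p under 0.05, with a median log2 change of -0.31. Fn1, fibronectin, the ligand of Itga5 with Itgb1, read 785, 848 and 778 in control-labelled regions against 363, 150.2 and 379 in floxed-labelled ones. Every floxed-labelled region lay far below the lowest control, and the log2 change was -1.55 ± 0.35 SE at adjusted p 0.076. Spp1, osteopontin, lay at 2830.4 ± 953 and 1189 ± 1017 and Tnc, tenascin C, a ligand of Itga9, at 46.2 ± 23.9 and 19.99 ± 8.52 (SD, n = 3 each), both overlapping, with adjusted p of 0.269 and 0.261. Fgg, the fibrinogen gamma chain, a plasma protein made by hepatocytes, ran the other way, at 248 ± 93.9 and 564 ± 208 (adjusted p 0.191). Beside it, the hepatocyte gene Mup13 rose from 132 ± 90.1 to 2309 ± 1489.8, with an adjusted p of 0.00362 (limma). Of 11 hepatocyte markers 2 were called higher, Mup13 and Fabp1, and 0 lower, 4 had a negative log2 change, down to -0.97, and 8 overlapped between the groups.

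Among 8 collagens of basement membranes, 1 was higher and 3 lower at an unadjusted p under 0.05. Col4a1 and Col4a2, the chains of the main collagen IV, lay at 607 ± 174 and 305 ± 157 and at 397 ± 113 and 229 ± 109, and both overlapped (adjusted p 0.271 and 0.353). Col18a1 lay at 213 ± 11.4 and 127 ± 72.7 with floxed-labelled region 1 inside the control range. Col17a1, a collagen of hemidesmosomes, was higher in every floxed-labelled region, at 6.61 ± 1.23 and 16.7 ± 2.55, but lay near background in the controls, at 1.36 times the negative probe. Among 9 genes of basement membrane assembly 8 had a negative log2 change. The 1 positive gene, Fbln1, read 6.80, 12.5 and 31.4 in control-labelled regions against 109, 37.0 and 12.3 in floxed-labelled ones, overlapping. Its log2 change was 1.34 ± 0.65 SE at adjusted p 0.416 (limma). Sparc, a collagen-binding matricellular protein, read 868, 1124 and 1047 in control-labelled regions against 594, 427 and 699 in floxed-labelled ones, and Pxdn, the peroxidase that cross-links collagen IV, lay at 81.7 ± 7.22 and 49.8 ± 15.5. In both the groups did not overlap, with adjusted p of 0.269 and 0.268.

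Among 7 cell surface ligands, 1 was higher and 1 lower at an unadjusted p under 0.05. Icam1, a ligand of the beta 2 integrins, read 46.8, 41.0 and 38.0 in control-labelled regions against 49.97, 78.4 and 75.2 in floxed-labelled ones. It was higher in every floxed-labelled region, with a log2 change of 0.66 ± 0.24 SE at adjusted p 0.281. F11r, a junction protein that also binds LFA-1, lay at 205 ± 38.5 and 108 ± 48.7, lower without overlap (adjusted p 0.230). Cdh1, E-cadherin, the ligand of Itgae with beta 7, lay at 215 ± 67.0 and 148 ± 72.4 with overlap (adjusted p 0.504). Icam2, also a ligand of beta 2 integrins, lay near background at 12.5 ± 3.51 and 10.2 ± 2.54 with overlap. Its log2 change was -0.27 at adjusted p 0.818 (limma). Vcam1, a ligand of Itga4, was level, with a log2 change of -0.01 at adjusted p 0.992.

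Among 26 adaptors that link integrins to actin, 2 were higher and 3 lower at an unadjusted p under 0.05, and the median log2 change was -0.18. Both higher genes, Apbb1ip and Parvg, belong to blood cells. Apbb1ip, which encodes the Rap1 effector RIAM, read 6.80, 19.9 and 19.5 in control-labelled regions against 25.9, 37.0 and 32.5 in floxed-labelled ones, and Parvg, the haematopoietic parvin, 12.8, 15.4 and 17.0 in control-labelled regions against 20.4, 26.1 and 25.8 in floxed-labelled ones. Parva and Fermt2, the parvin and kindlin of adherent cells, lay at 71.9 ± 5.00 and 43.5 ± 8.50 and at 84.0 ± 14.6 and 51.9 ± 14.5 (SD, n = 3 each), with log2 changes of -0.73 and -0.70. Adjusted p were 0.237, 0.330, 0.211 and 0.274 in this order. Fermt3, the haematopoietic kindlin, did not separate the groups, with a log2 change of 0.005 at adjusted p 0.998 (limma). Apbb1ip was only 1.34 times the negative probe in control-labelled region 1. Of 12 genes of dystroglycan and other laminin receptors, Bcam, a receptor of the laminin alpha 5 chain, lay at 120.0 ± 31.0 and 60.8 ± 17.2 and Dag1, dystroglycan, the receptor of pikachurin, agrin and perlecan, at 43.7 ± 2.75 and 26.9 ± 8.45. Both were lower in every floxed-labelled region, with adjusted p of 0.157 and 0.286. The glycosyltransferases Pomt1 and Pomt2, which act on dystroglycan, were higher in every floxed-labelled region, at log2 changes of 0.62 and 0.52 and adjusted p of 0.381 and 0.504. They lay near background in the controls, at 2.77 and 2.36 times the negative probe. Without overlap, 2 of these 12 genes were higher and 3 lower, beside 10.0% and 9.08% of all targets.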

How the data were processed

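Frozen sections were fixed in formalin, probed with the GeoMx mouse atlas and read by sequencing, per the labels' protocols. The authors deposited signal for 13264 targets plus 1 negative probe, in 3 regions of each genotype. How they counted tags, chose targets or scaled the signal: not given in the sources used here. About 99.98% of a column's values lay within 0.01 step of a multiple of 1 column-specific step, with smallest values of 1 to 4 steps. The step could not be established as 1 tag in every column, so no count model was used. If it is 1 tag, the median target rested on 26 to 40 tags in control-labelled and 11 to 19 in floxed-labelled regions, counting errors of 15.8% to 19.6% and 22.9% to 30.2%.

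Each column was scaled to a common 75th percentile (Q3, the geometric mean over regions). Floxed minus control was fitted with limma 3.58.1 in R 4.3.3 (lmFit and trended eBayes) on log2(value + 1), which understates changes of low genes. Targets with a mean above the negative probe were kept, which removed none, and p-values were adjusted by Benjamini-Hochberg over all targets. On the deposited scale the prior degrees of freedom were infinite, so those calls rest on the trend and not on each gene's own spread. The fit was tested on simulated data with 200 changed targets. It called 32% of those changed by 1 on the log2 scale and 95% of those changed by 2. Changes of the size seen in most members could therefore be missed. The members and gene lists were chosen with earlier results of these data known. Per-region values are given for the 14 members with the smallest p and the highest member of each role, and of pathway lists up to 4 genes with the smallest p are named; other genes and per-region values were chosen after their values were seen. Protein sequences were not used here, and 1 member is counted but not reported here by name. Alternatives were other scalings, filters, pseudocounts, variance models, background subtraction, a threshold of 0.1 and leaving out each region. All 37 members matched RefSeq symbols, and 0 columns were left out. Figures used matplotlib 3.10.9 in Python 3.11.15.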

Additional observations from a re-analysis of the deposited data

How the results depend on the processing

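The number of members called after Q3 scaling was 0 under total, quantile and negative-probe scaling, both filters, both pseudocounts, no trend and background subtraction. With no trend 0 of all targets were called, so that setting says nothing about the members. With negative-probe scaling only 18 of all targets were called higher and 5 lower. The number of members called was 6 with region weights (Hspg2, Egflam, Nid2 and Lamb1 lower, Itgb2 and Itgax higher, where 5.24% of all targets were called) and 1, Egflam, at a threshold of 0.1 (1.26% of all targets). With each region left out it ran from 0 to 7, the 7 without floxed-labelled region 1. For the 75 pathway genes, also 0, it was 1 under quantile normalization, 12 with region weights and 1 at a threshold of 0.1, and 0 to 15 with a region left out, the 15 without floxed-labelled region 1. The members lower as deposited, 29, ran from 26 to 28 with a region left out. Members without overlap between the groups, 11, were 29 as deposited (75.6% of all targets). They ran from 12 to 23 with a region left out, 17 without control-labelled region 3 (26.3% of all targets) and 23 without floxed-labelled region 1 (41.9%). With negative-probe scaling 1 member, Itgal, was higher and 10 were lower without overlap (5.74% and 14.2% of all targets). Leaving out a region can only add such members. The cause of these differences was not tested. The leukocyte minus matrix difference, 1.00, ran from 0.75 to 1.32 with a region left out, and the Itgb2 minus Itgb1 difference, 1.96, from 1.53 to 2.23. Other settings moved them to between 0.85 (pseudocount 5) and 1.33 (negative probe subtracted) and to between 1.70 (pseudocount 5) and 2.60 (negative probe subtracted), and quantile normalization gave 0.97 and 1.71. Of all 37 members 8 turned their sign with a region left out, a check added after seeing the data, among them Itga2b (-0.38 to 0.03; 0.030 without control-labelled region 2), Itga8, Itgam, Itgb3, Itgb4, Lama1 and Lamb3. Precision is limited by 3 regions per group and by few tags for members near the negative probe. No paired analysis was possible because the labels give no replicate numbers that the groups share.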
